A study of Saccharomyces cerevisiae with 144 samples.

Results

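Ribosome biogenesis genes of budding yeast were followed as a set of 54 genes, chosen by name from the known assembly factors, out of 6465 genes counted. They comprise 3 box C/D and 4 box H/ACA proteins, 7 UtpA, 6 UtpB and 10 other factors of the small-subunit processome, 18 nucleolar factors and 6 later factors of the large subunit. The study followed nascent transcripts by SLAM-seq, in which 4-thiouracil (4tU) taken up by the cells leaves T>C conversions in the sequenced reads. Cells received IAA, the auxin that triggers degradation of tagged proteins (1 mM), or the solvent DMSO for 25 min, and then 4tU (5 mM) for 4 min. A T>C read holds at least 2 conversions and marks RNA made during labeling, whereas the total reads of a gene also hold older RNA.

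All 23 strains carried the auxin receptor OsTIR1 driven by the GPD1 promoter, with endogenous Bdf1 and Bdf2, the BET family bromodomain proteins of yeast, fused to 3xV5 and mini-AID degron tags. Bdf1/2-AID had no further copy of BDF1, while the other 22 strains expressed a further copy from the TRP1 locus. WT denotes the strain with an unmodified copy, and 21 strains carried a variant copy. The variants affect the bromodomains (BD), phosphorylation sites near either end of the protein (NPS at the N-terminal and CPS at the C-terminal side), motif B and the basic interaction domain (B and BID), the extra-terminal domain (ET) or the disordered regions (IDRs). Here Δ marks a deletion, m marks substitutions, and p the phosphomimetic form. The study's text describes the ΔBD2, ΔBD1/2 and ΔIDRs proteins as modestly less abundant. Each strain had 3 replicates in IAA and 3 in DMSO, named A to C, and WT had 6 of each, named A to F. The methods call the replicates biological, and p-values measure the spread between these libraries.

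Ribosome assembly begins in the nucleolus, where the processome gathers on the nascent ribosomal RNA precursor. UtpA and UtpB are protein complexes that bind early, and box C/D and H/ACA particles guide methylation and pseudouridylation of the RNA. Further factors fold, cut and export the precursors of both subunits, and in yeast the genes that encode these factors form a regulon whose promoters often carry the PAC and RRPE elements.

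The promoters of the 54 genes carried these elements more often than promoters at large. Windows reaching 250 bases before and 50 after the coding start were read from the R64 genome of RefSeq and searched on both strands for the PAC core GATGAG and the RRPE core AAAAATTT, which cannot overlap each other. PAC cores were present in 51 windows (94.44%), against 20.36% of 6001 windows of protein-coding genes, and RRPE cores in 51 (94.44%), against 14.15%. Both cores were present in 49 windows (90.74%), against 5.63%. UTP22 had neither core, UTP15 and SPB1 had no PAC core, and UTP13 and UTP7 had no RRPE core. Other genes of ribosome production, whose changes are given below, often held the cores too. PAC cores were present in 20 of 20 further 40S factors and 24 of 26 further 60S factors, and both cores in 17 and 16. Of 8 genes of RNA polymerase I and its initiation factor, 7 held a PAC core and 6 both. Of 5 regulators of the regulon, 2 held a PAC core and 0 both. Among 132 cytosolic ribosomal protein genes, 11.36% of windows held a PAC core and 12.12% an RRPE core. The PAC core farthest from the start lay at a median of −125 bases (interquartile range −143.5 to −105.5), and the corresponding RRPE core at −140 (−162.5 to −130.5), with a median of 9 bases between the nearest pair. The stretch that holds all cores is shown for the member of 6 of the 7 functional groups with both cores and the most T>C reads in Bdf1/2-AID in DMSO, read 5′ to 3′ on the coding strand, with PAC and RRPE cores in capitals.
NOP58, chrXV:898410-898514, minus strand: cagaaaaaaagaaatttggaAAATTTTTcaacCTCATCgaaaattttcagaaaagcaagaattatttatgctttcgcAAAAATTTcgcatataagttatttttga
NOP10, chrVIII:241514-241576, plus strand: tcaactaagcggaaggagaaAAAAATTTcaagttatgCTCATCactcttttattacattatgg
UTP6, chrIV:1358982-1359050, minus strand: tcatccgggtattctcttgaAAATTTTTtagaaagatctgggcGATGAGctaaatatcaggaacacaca
BFR2, chrIV:1059482-1059548, plus strand: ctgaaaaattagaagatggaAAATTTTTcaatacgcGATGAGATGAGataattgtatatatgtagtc
EBP2, chrXI:125614-125704, plus strand: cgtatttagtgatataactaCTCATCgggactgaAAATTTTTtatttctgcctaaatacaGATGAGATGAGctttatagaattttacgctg
MRT4, chrXI:426082-426151, plus strand: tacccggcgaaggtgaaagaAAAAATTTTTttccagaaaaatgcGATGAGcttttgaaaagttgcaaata

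In these promoters the nearest PAC and RRPE cores were separated by 4 bases (NOP58) to 15 bases (UTP6). BFR2 and EBP2 held overlapping PAC cores, and EBP2 had a further one upstream on the other strand. In Bdf1/2-AID, the median change in T>C reads described below was −1.73 for the 49 genes with both cores, −2.10 for the 2 with a PAC core alone, −1.63 for the 2 with an RRPE core alone and −1.93 for UTP22.

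The libraries held between 4089393 and 21384793 reads, of which 34354 to 998627 were T>C reads, and 794 to 19228 T>C reads per library came from the 54 genes. The genes took 1.22% to 2.93% of T>C reads and 0.394% to 1.31% of total reads. All 54 passed the minimum mean of 10 T>C reads over all libraries, as did 4088 genes in all, and 53 were detected by T>C reads in each library, ERB1 being the exception. Members averaged 21.5 to 437.7 T>C reads. The median member averaged 77.4 T>C reads per library and the median gene tested 25.9, so that the members were measured with less counting error than most genes. Total reads of BDF1 were lowest in the 6 Bdf1/2-AID libraries (96.3 to 140.0 CPM, reads per 1e6 total reads) and reached 479.8 in strains with a further copy. RPL41A, a very short ribosomal protein gene, took 13.4% to 19.9% of reads in WT replicates A to C, 8.64% to 20.1% in mET(4) and 12.02% to 20.9% in mBD1/2, against 3.68% to 4.39% in WT replicates D to F and 1.44% to 6.10% in the other 20 strains. NOP10, the member with the shortest counted region, followed the same division, with 890.9 to 1107 T>C reads per 10000000 total reads in IAA in WT A to C and 330.99 to 378.1 in WT D to F. Counts that rest on WT are therefore also given with either set alone. All levels below are normalized T>C reads, that is, T>C reads per 10000000 total reads of the library, a relative unit in which less new RNA per cell and more of other RNA in the total cannot be told apart.

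In Bdf1/2-AID, new transcripts of all 54 genes were lower in IAA than in DMSO. The median change in T>C reads was −1.76 on the log2 scale (a 3.39-fold decrease, interquartile range −2.01 to −1.50), and 54 genes were lower at an adjusted p under 0.05 (quasi-likelihood test of edgeR, p-values adjusted by Benjamini-Hochberg), against 86.9% of the genes tested, while 0 members and 0.342% of genes were higher. The median of all genes was −1.80, so the set fell about as far as the transcriptome, with 25 members below the gene median. Summed over members, IAA libraries had 2310 ± 68.2 normalized T>C reads and DMSO libraries 6985 ± 261 (SD, n = 3 each). Every IAA library lay below every DMSO library in 54 members for T>C reads (84.4% of genes), in 52 members for total reads (78.6%) and in 36 members for the labelled share, the percentage of a gene's reads that are T>C reads (55.2%). The median member had a labelled share of 6.35% in IAA and 10.6% in DMSO.

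**Figure D1:**
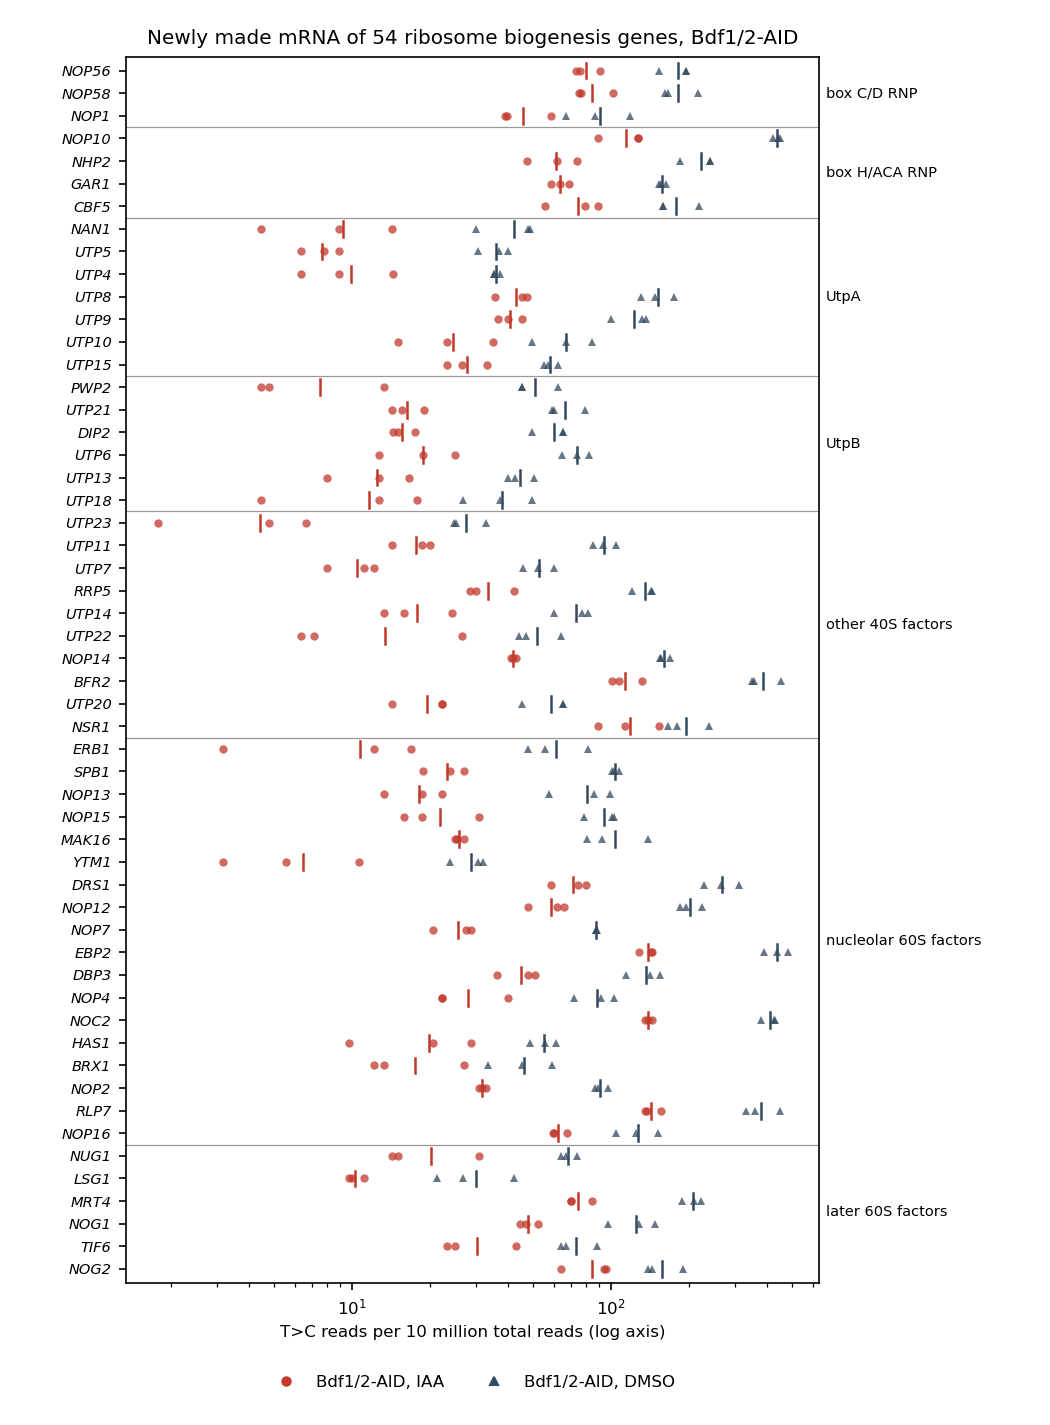
Normalized T>C reads (log axis) of each of the 54 genes in the 3 IAA (circles) and 3 DMSO (triangles) libraries of Bdf1/2-AID, grouped by function, with vertical bars at the group means. In every row the 3 IAA libraries lie left of the 3 DMSO libraries, and the group means lie closest for NSR1, NOG2 and NOP1.

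Counted regions are given with their coordinates in the R64 build, and reach from the coding start past the stop codon. The box C/D proteins fell least among the functional groups, with changes of −1.16 to −1.01 and a median of −1.13. NOP58 (YOR310C, chrXV:896575-898360), a core protein of the particle, had 101, 76.3 and 75.3 normalized T>C reads in the IAA libraries, against 217, 161 and 166 in the DMSO libraries, a change of −1.13 ± 0.18 (SE, adjusted p 7.7e-08). Its partner NOP56 (YLR197W, chrXII:546097-547861) had 76.0, 90.5 and 73.1 in IAA and 193.9, 153.0 and 194.6 in DMSO (−1.16 ± 0.18, adjusted p 3.94e-08). NOP1 (YDL014W, chrIV:427364-428597), the methyltransferase fibrillarin, had 39.6, 39.0 and 58.7 in IAA and 118, 86.7 and 67.1 in DMSO (−1.01 ± 0.22, adjusted p 4.92e-05). The groups did not overlap for any of these genes, although the highest IAA library of NOP1 came close to its lowest DMSO library.

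Among the box H/ACA genes the change ranged from −1.95 to −1.26. NOP10 (YHR072W-A, chrVIII:241664-242090), a small structural protein of the particle, had 127, 88.7 and 127 normalized T>C reads in IAA and 446.99, 420.97 and 439.5 in DMSO (−1.95 ± 0.16, adjusted p 4.08e-17). NHP2 (YDL208W, chrIV:87512-88232), which binds the guide RNA, had 47.5, 73.6 and 62.0 in IAA and 242, 184 and 239.9 in DMSO (−1.82 ± 0.18, adjusted p 1.25e-13). CBF5 (YLR175W, chrXII:506134-507835), the pseudouridine synthase, had 88.7, 79.0 and 55.4 in IAA and 159, 159 and 218 in DMSO (−1.26 ± 0.18, adjusted p 1.63e-08). None of the IAA libraries reached the DMSO range in these genes. GAR1, the remaining subunit, changed by −1.31. NOP10 thus lay below the median of all genes (−1.80), NHP2 close to it, and CBF5 and GAR1 above it, within a single particle of 4 proteins.

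UtpA genes, whose proteins bind the 5′ external spacer early, changed by −2.28 to −1.09 with a median of −1.81. UTP8 (YGR128C, chrVII:747700-750091) had 47.5, 45.3 and 35.4 normalized T>C reads in IAA and 148, 131 and 174 in DMSO (−1.81 ± 0.20, adjusted p 5.62e-12). UTP9 (YHR196W, chrVIII:491931-493908) had 36.4, 39.9 and 45.4 in IAA and 132, 99.9 and 136 in DMSO (−1.57 ± 0.21, adjusted p 1.48e-09). UTP10 (YJL109C, chrX:211750-217309), the largest subunit, had 34.9, 15.1 and 23.3 in IAA and 84.1, 49.5 and 67.1 in DMSO (−1.53 ± 0.28, adjusted p 1.59e-06). In all 3 genes the IAA libraries lay below the DMSO libraries. NAN1 fell most in this complex (−2.28) and UTP15 least (−1.09). UTP9 overlaps neighbouring counted regions on the same strand, as do 10 members in all.

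The UtpB complex fell further as a group, with changes of −2.63 to −1.70 and a median of −1.91. UTP6 (YDR449C, chrIV:1357330-1358902) had 12.7, 24.8 and 18.8 normalized T>C reads in IAA and 82.1, 64.6 and 73.8 in DMSO (−1.89 ± 0.27, adjusted p 6.1e-09). UTP21 (YLR409C, chrXII:934164-937233) had 19.0, 14.2 and 15.5 in IAA and 79.3, 59.3 and 60.4 in DMSO (−2.06 ± 0.28, adjusted p 2.68e-09). DIP2 (YLR129W, chrXII:399657-402738) had 17.4, 15.1 and 14.4 in IAA and 65.0, 49.5 and 65.4 in DMSO (−1.93 ± 0.29, adjusted p 2.91e-08). For these 3 genes every IAA library lay far below every DMSO library. The scaffold protein gene PWP2 (YCR057C, chrIII:220207-223228) showed the second largest fall of all members, to 4.75, 13.3 and 4.43 in IAA, against 62.1, 45.1 and 45.3 in DMSO (6.2-fold, −2.63 ± 0.35, adjusted p 1.09e-09).

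The 10 other small-subunit factors held both extremes of the set. UTP23 (YOR004W, chrXV:333592-334606), a protein of the processome, had 4.75, 1.77 and 6.65 normalized T>C reads in IAA and 24.8, 32.7 and 25.2 in DMSO, the largest fall of all members (6.51-fold, −2.70 ± 0.46, adjusted p 4.73e-07). NSR1 (YGR159C, chrVII:806162-807656), the yeast relative of nucleolin, had 88.7, 113 and 153 in IAA and 238, 165 and 179.5 in DMSO, the smallest fall (1.63-fold, −0.71 ± 0.17, adjusted p 0.000193). Even for NSR1 the highest IAA library lay below the lowest DMSO library. UTP11 and UTP7 both changed by −2.36. BFR2 (YDR299W, chrIV:1059627-1061481) had 131, 101 and 107 in IAA and 356, 351 and 455 in DMSO (−1.78 ± 0.16, adjusted p 1.5e-15). NOP14 (YDL148C, chrIV:187904-190586) had 42.8, 41.7 and 41.0 in IAA and 156, 154 and 169 in DMSO (−1.93 ± 0.20, adjusted p 2.73e-13). RRP5 (YMR229C, chrXIII:725684-731123), a large RNA-binding protein needed for both subunits, changed by −2.02, and UTP20, the longest member, by −1.65.

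Nucleolar factors of the large subunit changed by −2.38 to −1.04 with a median of −1.70. EBP2 (YKL172W, chrXI:125759-127292) had 144.2, 142 and 128 normalized T>C reads in IAA and 388.7, 438.7 and 479.8 in DMSO (−1.65 ± 0.15, adjusted p 2.68e-15). NOC2 (YOR206W, chrXV:727512-729894), part of complexes that join the early pre-60S particle, had 144.2, 138 and 135 in IAA and 380.1, 430.7 and 424.4 in DMSO (−1.56 ± 0.15, adjusted p 1.6e-14). RLP7 (YNL002C, chrXIV:625924-627142), a ribosomal protein L7 relative, had 135, 156 and 137 in IAA and 330.5, 447.5 and 361 in DMSO (−1.41 ± 0.15, adjusted p 1.94e-12). The IAA and DMSO libraries of all 3 were separate. ERB1, which forms a complex with NOP7 and YTM1, fell most (−2.38), its partners changed by −1.74 and −1.99, and NOP16 fell least (−1.04). The RNA helicase genes DRS1, DBP3 and HAS1 changed by −1.93, −1.65 and −1.52.

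Later factors of the large subunit changed by −1.73 to −0.90 with a median of −1.42. MRT4 (YKL009W, chrXI:426242-427202), which holds the place of the stalk protein P0, had 69.7, 84.3 and 69.8 normalized T>C reads in IAA and 208, 188 and 223 in DMSO (−1.45 ± 0.17, adjusted p 4.86e-11). NOG1 (YPL093W, chrXVI:370978-373171), a GTPase, had 44.4, 47.0 and 52.1 in IAA and 147, 128 and 97.3 in DMSO (−1.39 ± 0.20, adjusted p 1.44e-08). NOG2 (YNR053C, chrXIV:720870-723112), another GTPase, had 93.5, 63.9 and 95.3 in IAA and 143, 139 and 189.6 in DMSO (1.87-fold, −0.90 ± 0.18, adjusted p 1.34e-05). The IAA and DMSO libraries did not overlap for any of them. The counted region of NOG2 shares 524 bases with SNR191, a small nucleolar RNA, and ESF2, so part of its reads may belong to them. TIF6, the homolog of translation factor eIF6, changed by −1.34.

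Relative to all T>C reads, with TMM factors, few members passed the test. Under this scaling the median member changed by −0.10 and the median gene by −0.15, and 2 members were lower (PWP2 at −0.97 and UTP11 at −0.70; 9.32% of genes) while 6 were higher (20.3% of genes). The 6 were NSR1 (0.97), NOG2 (0.76), NOP1 (0.66), NOP16 (0.63), NOP58 (0.54) and NOP56 (0.51), so that all 3 box C/D genes were among them. With T>C totals but without TMM factors, 37 members were lower (44.1% of genes), as the median gene then stood at −0.81. The distance of the members' median from the gene median was between 0.04 and 0.05 in Bdf1/2-AID under all 4 scalings tried. A scaling shifts all genes of a library alike, so this distance could hardly differ between scalings. The sum of the members made up 1.52% of T>C reads in IAA and 2.29% in DMSO, and 0.458% and 0.823% of total reads.

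Total reads of 53 members were also lower in IAA (78.5% of genes), with a median change of −1.06, against −1.07 over all genes. UTP23 had 7.76, 7.54 and 7.86 CPM in IAA and 28.6, 32.3 and 35.1 in DMSO (−2.04 ± 0.15, adjusted p 2.2e-12), the largest fall in total reads as well. UTP21, UTP7 and UTP8 followed at −1.66, −1.56 and −1.56. RRP5 stood apart by its contrast between measures, with 30.1, 28.4 and 42.1 normalized T>C reads in IAA, against 143, 142 and 121 in DMSO. Its total reads were 176, 171 and 163 CPM in IAA and 211, 199.7 and 192 in DMSO (−0.24 ± 0.10, adjusted p 0.0222). NSR1 was the member whose total reads did not pass the test (−0.16, adjusted p 0.146). NOP56 had 418.8, 412.9 and 356 CPM in IAA and 448.04, 469.1 and 563 in DMSO (−0.32 ± 0.10, adjusted p 0.0059). Across the 54 members the changes in T>C and total reads had a Pearson correlation of 0.73 and a Spearman correlation of 0.69, given as a description because both counts come from the same libraries.

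**Figure D2:**
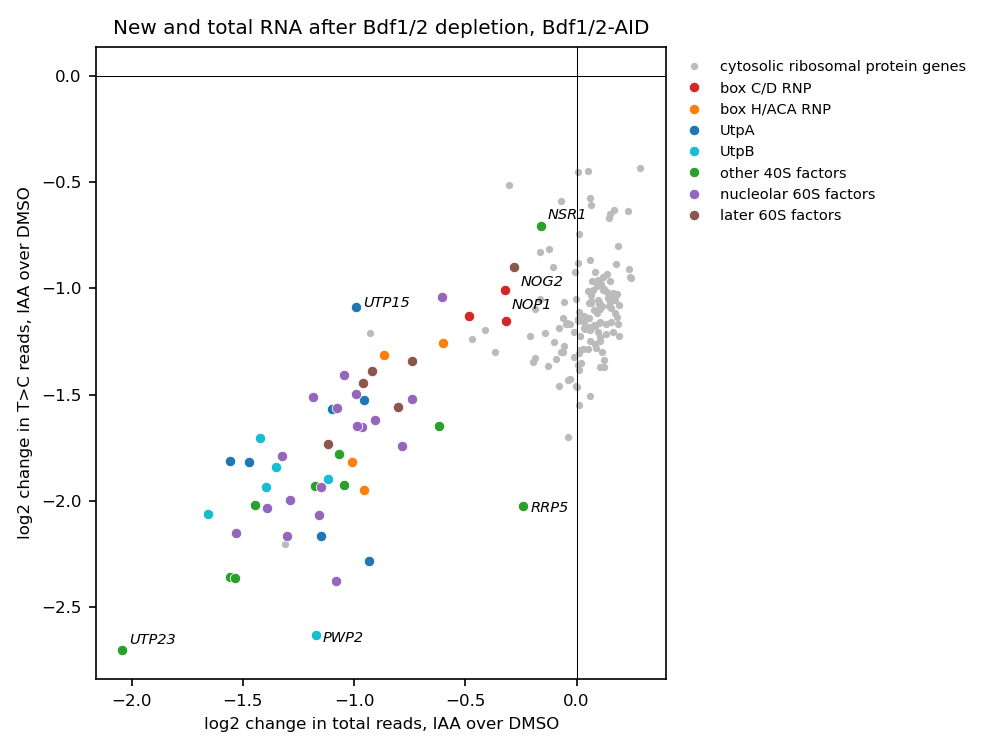
Log2 change (IAA over DMSO, Bdf1/2-AID) in T>C reads (y axis) against that in total reads (x axis), with members coloured by functional group and 132 ribosomal protein genes in gray. All 54 members lie below 0 on both axes, and RRP5 (−2.02 and −0.24) sits furthest right for its height.

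Other genes of ribosome production moved the same way to different extents. All 20 further 40S factors and all 26 further 60S factors were lower in T>C reads, with medians of −2.07 and −2.08. Among the 40S factors, the helicase gene ROK1 and ENP2 changed by −2.88 and −2.83, and RRP9 and the kinase gene RIO2 by −1.55 and −1.52. Among the 60S factors, the helicase gene SPB4 and RRP15 changed by −3.24 and −2.60, and SDA1 and RRP14 by −1.43 and −0.98. All 8 genes of RNA polymerase I and its initiation factor were lower with a median of −1.70, from RPA12 (−2.20) and RPA135 (−2.07) to RRN3 (−0.61) and RPA190 (−0.56). The 5 regulators of the regulon had a median of −1.66, with the repressor TOD6 at −2.28, the kinase SCH9 at −2.06, the repressor STB3 at −1.04 and the activator SFP1 at −0.58. Ribosomal protein genes fell less, with 132 lower at a median of −1.14, which lay 0.62 above the members' median. Their total reads had a median change of 0.06, with 7 lower and 5 higher.

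In WT, where an unmodified copy of BDF1 remained, 0 members were called on IAA (0% of genes), and DESeq2's Wald test likewise called 0. The median change was −0.41, against −0.36 over all genes, and 14 members were lower at an unadjusted p under 0.05 (14.8% of genes). Summed over members, IAA libraries had 7273 ± 989 normalized T>C reads and DMSO libraries 9578 ± 1273 (SD, n = 6 each). The ranges overlapped, from 6106 to 8565 in IAA and from 8099 to 11330 in DMSO. With the replicate letter as a block, 34 members were lower at a median of −0.42 (28.5% of genes). This block also takes up any difference between replicates A to C and D to F, so pairing by letter was not told apart from that difference. In WT replicates A to C alone 0 members were called, and in D to F alone 1.

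The difference between the change in Bdf1/2-AID and that in WT was itself tested, as an interaction. It was negative and past the threshold in 39 members (53.4% of genes), with a median of −1.31, against −1.40 over all genes. With the replicate letter as a block it passed in 50 members (67.6%). This block joined same-letter libraries of both strains, a link that the labels do not give. UTP23 and YTM1 showed the largest differences, −2.26 each, and NSR1 (−0.24) and NOP16 (−0.50) the smallest, neither of which passed the test. With the WT replicates A to C or D to F alone, 48 members were called, a count for which the share of all genes is not given here. With size factors from total reads or with TMM factors on T>C reads in place of library totals, 0 members passed.

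Among the strains with a further copy, that lacking the ET domain showed the largest change. In ΔET, 49 members (90.7%) were lower on IAA (72.7% of genes) with a median of −1.32, against −1.31 over all genes, and with size factors from total reads 5 were lower (8.24%). UTP23 had 4.54, 4.06 and 3.44 normalized T>C reads in IAA and 19.3, 16.1 and 34.8 in DMSO, a change of −2.55. UTP7 had 3.63, 4.06 and 4.82 in IAA and 34.3, 11.2 and 25.6 in DMSO (−2.52). These were the largest falls of the set in ΔET, and the treatments did not overlap. PWP2, which fell strongly in Bdf1/2-AID, had 7.27, 17.9 and 15.8 in IAA and 27.1, 12.4 and 20.6 in DMSO (−0.58, adjusted p 0.188), with overlapping groups. Its DMSO level in ΔET was already below that in Bdf1/2-AID (62.1, 45.1 and 45.3). The difference of its change between the 2 strains was not tested. Other members also started from a lower DMSO level in ΔET than in Bdf1/2-AID, as the comparison in DMSO below shows. NOG2 had 65.4, 64.2 and 53.7 in IAA and 80.1, 81.8 and 113 in DMSO (−0.59, adjusted p 0.0701). NOP1, UTP20 and LSG1 were the other members not called. Total reads were lower in 48 members (67.7% of genes) at a median of −0.73, against −0.70 over all genes, and relative to all T>C reads 3 members were lower (3.4%), UTP7 at −1.35, UTP23 at −1.34 and UTP11 at −1.03.

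Compared with the change in WT, the change in ΔET was more negative in 8 members (13.7% of genes) with a median difference of −0.94, against −0.90 over all genes. They were UTP23 (−2.12), UTP7 (−1.95), UTP11 (−1.84), UTP21 (−1.52), NOP4 (−1.43), DBP3 (−1.40), SPB1 (−1.31) and NOP2 (−1.23). With the replicate block 31 members passed (35.5%), with WT A to C alone 16 and with D to F alone 26. For either WT set alone the share of all genes is not given here. The count was 4 without WT DMSO F, 5 without WT IAA A or IAA D, 3 without ΔET DMSO A or IAA B, 14 without ΔET DMSO B, and 1 without ΔET DMSO C, IAA A or IAA C. With size factors from total reads or with TMM factors, 0 members passed.

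Fewer members passed in strains with substitutions in the ET domain. In mET(4), 43 members (79.6%) were lower on IAA (48.2% of genes) with a median of −0.96, against −1.05 over all genes, and total reads were lower in 24 (42.1%). With size factors from total reads 3 members were lower (4.13%), with T>C totals 1 (1.79%) and with TMM factors 0 (0.832%). UTP22, the processome factor with neither promoter core, had 9.45, 8.07 and 10.4 normalized T>C reads in IAA and 56.8, 59.2 and 24.4 in DMSO (−2.30, adjusted p 0.000575). UTP4 had 13, 8.07 and 8.30 in IAA and 57.7, 36.2 and 28.5 in DMSO (−2.05). NOG2 had 93.3, 118 and 99.6 in IAA and 101, 142 and 117 in DMSO (−0.21, adjusted p 0.518), so its groups overlapped. The count of 43 dropped to 22 without IAA B, 26 without IAA C and 21 without DMSO B. The difference from the change in WT passed in 0 members by edgeR (0.391% of genes), in 1 by DESeq2, in 10 with the replicate block (16.6%) and in 1 with either WT set alone, while 11 were lower at an unadjusted p under 0.05 (21.8%). In mET(2), 5 members were lower (5.14%), between 0 without IAA B, DMSO A or DMSO B, 1 without IAA C, and 33 without IAA A. In mET(1) 0 members were called (0.0489%), with 10 lower at an unadjusted p under 0.05 (11.1%).

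Of the bromodomain, B and BID variants, 4 had between 32 and 43 members lower on IAA. In ΔB/BID, 43 members (79.6%) were lower (44.3% of genes, median −0.67 against −0.65 over all genes), with 28 without IAA B, 24 without IAA C and 27 without DMSO A. UTP4 (−1.15) and UTP7 (−1.09) were lowest there, and NOG2 (−0.29) and BRX1 (−0.11) highest. In ΔBD1/2, 39 (72.2%) were lower (40.2%, −0.74 against −0.73), with 16 without IAA B, 23 without IAA C and 13 without DMSO A, and SPB1 (−1.35) and UTP23 (−1.32) were lowest. In ΔB, 38 (70.4%) were lower (41.7%, −0.52 against −0.57), with 24 without IAA B, and UTP23 (−1.27) and UTP11 (−1.05) were lowest. In mBD1/2, 32 (59.3%) were lower (28.3%, −0.73 against −0.65), with 18 without IAA C, 9 without DMSO B and 1 without DMSO C, and UTP18 (−1.41) and UTP7 (−1.29) were lowest. The members' medians differed from those of all genes by less than 0.1 in each of these 4 strains, while the share of members called was above that of all genes. The part of the members' deeper counts in this difference of shares was not tested.

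ΔBID, mNPS and ΔNPS had smaller changes. In ΔBID, 25 members (46.3%) were lower (11.6% of genes, median −0.39 against −0.33 over all genes), with 7 without IAA B, 3 without IAA C, and 15, 16 and 11 without DMSO A, B and C. In mNPS, 18 (33.3%) were lower (7.88%, −0.48 against −0.38), with 2 without IAA C or DMSO B and 11 without DMSO A. In ΔNPS, 13 (24.1%) were lower (5.01%, −0.51 against −0.41), with 3 without IAA A, 7 without DMSO A and 0 without IAA C or DMSO B. In these 3 strains the share of members called was above that of all genes and their median change was larger, and each count changed with single libraries. The highest counts on leaving out a library were 31 in ΔBID, 19 in mNPS and 19 in ΔNPS. Here too the part of the members' deeper counts in the difference of shares was not tested.

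Few or no members passed in the remaining strains. In ΔNPS/CPS 4 members were lower (3.47% of genes), with 0 without IAA A, 1 without IAA C or DMSO B, 2 without DMSO C, 7 without IAA B and 8 without DMSO A. In pNPS/CPS 1 was lower (0.416%), and 0 without IAA A, IAA C, DMSO A or DMSO B. No member was called in ΔBD1 (0% of genes), ΔBD2 (0.22%), mBD1 (0.416%), mBD2 (0.0978%), ΔCPS (2.4%), mCPS (0%), mNPS/CPS (0%) or ΔIDRs (0%). At an unadjusted p under 0.05, 6 members were lower in ΔBD1 (10.1% of genes), 28 in ΔBD2 (19.3%), 7 in mBD1 (14.3%), 12 in mBD2 (11.4%), 14 in ΔCPS (21.6%), 4 in mCPS (12.3%), 3 in mNPS/CPS (5.45%) and 2 in ΔIDRs (6.85%). For ΔCPS, mNPS/CPS and ΔNPS/CPS the DMSO level was already low, as the comparison in DMSO shows.

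**Figure D3:**
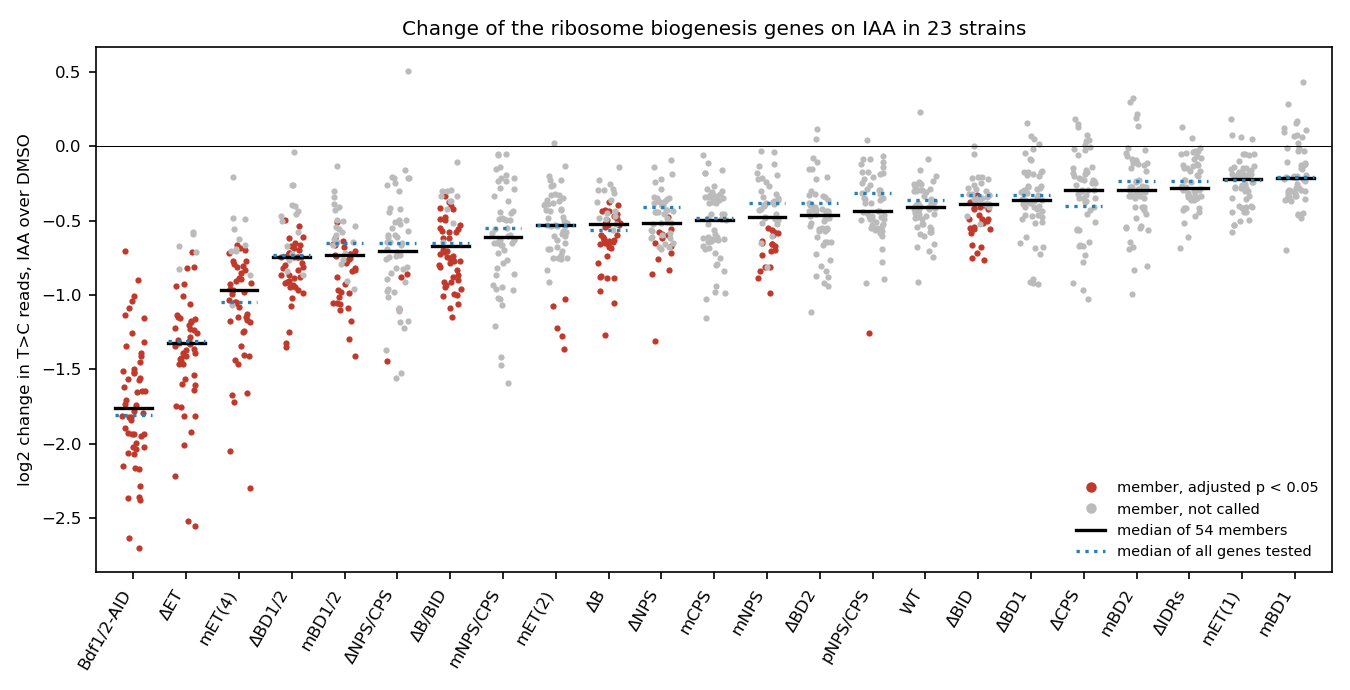
Log2 change in T>C reads (IAA over DMSO) of each of the 54 genes in 23 strains, ordered by the members' median (black bars), with called members in red, the others in gray, and the median of all genes tested as dotted blue bars. The black and blue bars lie close together in every strain, from Bdf1/2-AID (−1.76 and −1.80) and ΔET (−1.32 and −1.31) to strains near 0.

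The order of members was similar across strains in part. Averaged over the 23 strains, UTP23 (−0.87), UTP11 (−0.80), UTP6 (−0.79) and UTP21 (−0.76) had the lowest mean changes, and lay below the members' median in 18, 17, 20 and 19 strains. NOP58 (−0.43), NOP1 (−0.37) and NOG2 (−0.32) had the highest, and lay below the median in 5, 5 and 3 strains. The UtpB median lay below the members' median in 19 strains, that of the other 40S factors in 16, UtpA in 14 and nucleolar 60S factors in 10, against 5 each for box C/D, box H/ACA and later 60S factors. Across the 54 members, the change in Bdf1/2-AID had a Pearson correlation of 0.53 (Spearman 0.43) with that in ΔET, 0.43 (0.44) with mET(4), 0.48 (0.46) with ΔB/BID, 0.47 (0.45) with ΔBD1/2, 0.23 (0.22) with mBD1/2 and 0.07 (0.11) with WT. The libraries of these strains are separate, but genes are not independent replicates, and low genes carry more counting error. The change in Bdf1/2-AID had a correlation of 0.36 (0.35) with the level in DMSO, so members with fewer reads tended to show larger falls.

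With IAA in every group, variants were also set against WT. In ΔET, 53 members were lower than in WT (79.5% of genes) with a median of −2.04, against −1.77 over all genes. UTP7 (−3.76) and NOP15 (−3.20), an RNA-binding 60S factor, were lowest, and NOP1 (−0.76, adjusted p 0.049) and TIF6 (−0.75, adjusted p 0.051) highest. In mET(4), 52 members were lower (70.8%) with a median of −1.24, against −1.31, from UTP4 (−2.15) and UTP22 (−2.08) to NOP10 (−0.75) and NOG2 (−0.48). With WT A to C or D to F alone, the counts were 49 and 54 for ΔET (68.1% and 89.6% of genes). For mET(4) they were 49 and 52 (55.2% and 77.8%). For NOP10 in mET(4) the value was 0.15 with D to F alone, the set with the smaller RPL41A share.

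ΔBD1/2 had 22 members lower than WT (21.7% of genes) with a median of −0.81, against −0.57 over all genes. The count was 3 without ΔBD1/2 IAA B, 2 without IAA C, 26 with WT A to C alone (25.8%) and 39 with WT D to F alone (38.1%). In mBD1/2, whose libraries share the high RPL41A share of WT A to C, 0 members passed by edgeR (0.465%), 7 by DESeq2 and 22 at an unadjusted p under 0.05 (23.2%), with 11 without WT IAA C. With WT A to C alone 2 members were lower (7.24%) and with D to F alone 28 (33.9%), and the part of the RPL41A share in this difference was not tested.

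The phosphorylation-site variants had low members in IAA against WT, with 50 lower in ΔCPS (84.7% of genes), 53 in ΔNPS/CPS (87.5%) and 53 in mNPS/CPS (88.7%). With WT A to C alone these counts were 45, 49 and 47 (69.5%, 71.7% and 70.1% of genes), and with D to F alone 54 each (94.9%, 95.2% and 95.1%). In mCPS 16 were lower (25.9%), with 35 without mCPS IAA A, 1 without IAA B, 0 without IAA C, and 10 without WT IAA B, D or E. In ΔB/BID 13 were lower (24.5%), with 6 without ΔB/BID IAA A, 0 without IAA B, 1 without IAA C and 20 without WT IAA C. In ΔBD2 10 were lower (11.2%), with 1 without ΔBD2 IAA A and 0 without IAA B or C. With WT D to F alone, 38 members were lower in mCPS (45.9% of genes), 38 in ΔB/BID (47.1%) and 35 in ΔBD2 (26.9%), and with A to C alone 16 (26%), 21 (28.3%) and 19 (20.9%). In each of the variants not named so far in these comparisons, no more than 1 member was lower than in all WT libraries. With D to F alone 19 were lower in pNPS/CPS (14.6% of genes), 12 in ΔB (15.3%), 11 in ΔBD1 (7.22%), 10 in ΔNPS (8.29%) and 0 to 6 in the rest. With A to C alone 10 were lower in pNPS/CPS (17%), 10 in ΔB (18.6%), 9 in ΔBD1 (15.3%), 5 in ΔNPS (9.03%) and 1 to 5 in the rest. With all WT libraries the members called made up 92.6% of the set in ΔCPS, 98.1% in ΔNPS/CPS and in mNPS/CPS, 29.6% in mCPS, 24.1% in ΔB/BID and 18.5% in ΔBD2.

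In DMSO, with tagged endogenous Bdf1 and Bdf2 still present, the 3 variants ΔCPS, ΔNPS/CPS and mNPS/CPS were compared with Bdf1/2-AID. In ΔCPS 49 members were lower (83.9% of genes, median −1.37 against −1.20 over all genes), with UTP5 (−1.77) and RRP5 (−1.74) lowest and UTP21 and UTP13 (−0.15 each) highest. In ΔNPS/CPS all 54 were lower (78%, −1.26 against −1.28), from DIP2 (−1.94) and UTP10 (−1.82) to NOP2 (−0.65) and RLP7 (−0.56). In mNPS/CPS 46 were lower (72.6%, −1.34 against −1.29), from NAN1 (−1.70) and NOP10 (−1.67) to NOP56 (−0.48) and UTP21 (−0.33). The replicate B library of mNPS/CPS stood apart, with 4481 summed normalized T>C reads in DMSO, against 2121 and 2105 in A and C, and without it 54 members were lower. The mNPS/CPS count was 30 without its DMSO A, 29 without DMSO C and 21 without Bdf1/2-AID DMSO A. In all 3 variants 45 members (62.1% of genes) were lower, with the same Bdf1/2-AID libraries as controls each time, and this count was 0 with TMM factors and 0 without replicate A or C of every group.

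ΔET and ΔBID also differed from Bdf1/2-AID in DMSO. In ΔET 18 members were lower (8.46% of genes), with a median of −0.65, against −0.43 over all genes, and 44 of 54 members lay below the gene median. RRP5 (−1.46) and PWP2 (−1.29) were lowest, and TIF6 (−0.13) and UTP21 (−0.11) highest. The ΔET count was 11, 8 and 34 without ΔET DMSO A, B and C, and 1, 4 and 5 without Bdf1/2-AID DMSO A, B and C. In ΔBID 40 members were higher (33%), with a median of 0.55, against 0.41 over all genes, and 26 were higher without Bdf1/2-AID DMSO B. NUG1, a GTPase, and the helicase gene DBP3 were highest there (1.56 and 1.53), and DRS1 (−0.18) and NOP10 (−0.38) lowest, NOP10 being called lower. WT, with an unmodified further copy, also had a higher mean summed level in DMSO than Bdf1/2-AID. ΔBID was not compared with WT in DMSO, and in IAA its members had a median of 0.19 against WT.

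**Figure D4:**
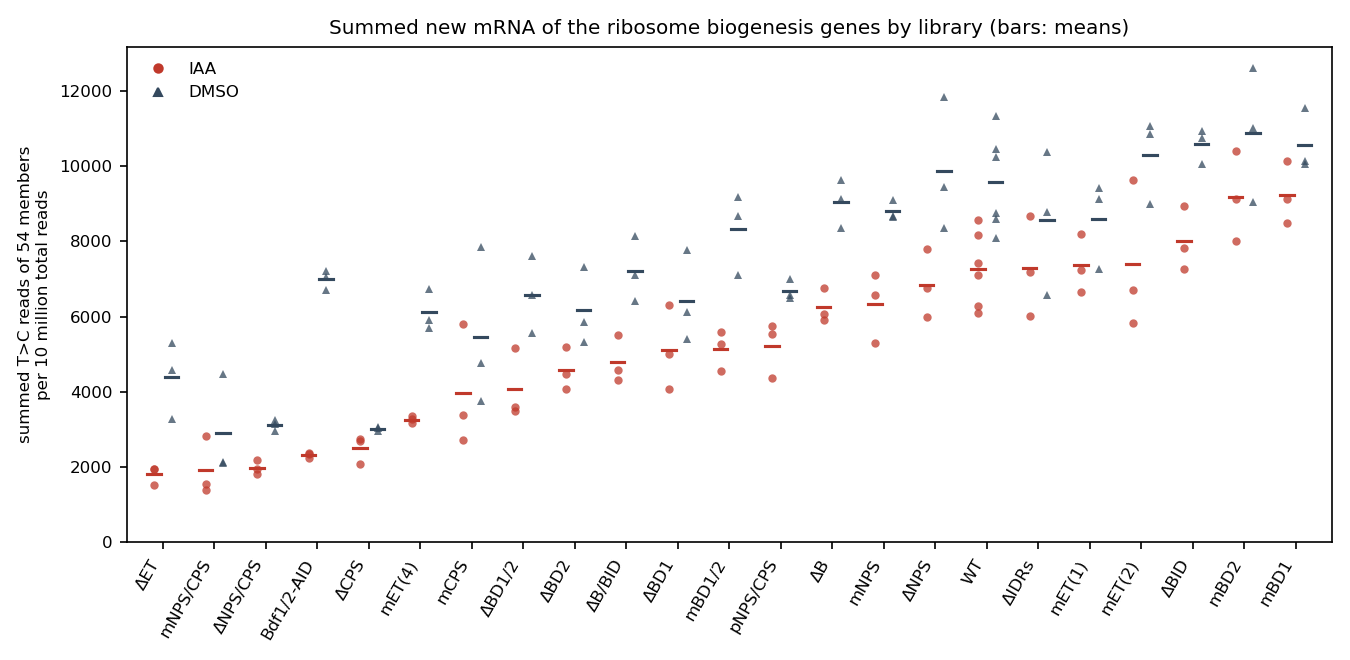
Summed T>C reads of the 54 genes, normalized, in each library, in IAA (circles) and DMSO (triangles), with bars at group means and strains ordered by their mean in IAA. ΔET (1813), mNPS/CPS (1929), ΔNPS/CPS (1983) and Bdf1/2-AID (2310) have the lowest means in IAA, and mBD2 (9185) and mBD1 (9240) the highest.

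Summed over members, the IAA means were lowest in ΔET (1813 normalized T>C reads), mNPS/CPS (1929), ΔNPS/CPS (1983), Bdf1/2-AID (2310) and ΔCPS (2509), followed by mET(4) (3261), mCPS (3969) and ΔBD1/2 (4085). The single libraries of ΔET (1533, 1960 and 1947) overlapped those of mNPS/CPS (1550, 2835 and 1401), so neighbours at the low end of this order were not separated. The mET(4) libraries (3346, 3268 and 3169) lay above all ΔET and Bdf1/2-AID libraries in IAA, and below the lowest WT library in IAA (6106).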

How the data were processed

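The deposited files hold raw counts per gene for each of 144 libraries, one value for all reads and one for T>C reads. Per the methods and the submitters' processing notes, the authors trimmed reads with fastp 0.23.2 and used slamdunk 0.4.3 to align, filter and count them on the R64 genome (annotation R64-3-1), on a region per gene that extends past the stop codon. Gene identifiers were matched to RefSeq locus tags (6462 of 6465), including all 54 members.

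T>C counts were fitted with edgeR 4.0.16 (quasi-likelihood test, R 4.3.3) with the log of the total reads of the library as offset, on the libraries of the groups compared, over genes with a mean of at least 10 T>C reads. P-values were adjusted by Benjamini-Hochberg over the 4088 genes, with a threshold of 0.05. The methods divide T>C reads by total read counts and use DESeq2, which was run as an alternative (1.42.0). A second scaling used T>C totals with TMM factors, and total reads were fitted as a second measure. The fitting steps were tested on simulated data. Each file header named the library number of its label in 144 of 144 files. No pair of libraries within a group (162 pairs) held identical counts or agreed within sampling noise.

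Strain, treatment and replicate letter were taken from the labels. The letters were checked for pairing by the correlation of deviations of same-letter libraries from their group means. In WT it was 0.312 to 0.602, over the limit of 0.1 for every pair, and in no other of the 23 strains, so that WT values are also given with the letter as a block. Of the 6 WT IAA libraries, 4 correlated best with the DMSO library of their own letter. The WT group means span replicates A to C and D to F, so a difference between these sets also enters the correlation. Where WT was compared with another strain, the block also joined same-letter libraries across the strains, a link that the labels do not give.

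The members, the other lists and the functional groups were chosen with earlier results of these data known. Values per library are given for the 3 members of each group with the most T>C reads in Bdf1/2-AID in DMSO and the 2 largest and 2 smallest changes on IAA, and the 2 lowest and 2 highest elsewhere. The promoter stretch of the UtpA group is not reported here. The values per library of RRP5, and of NOP56 for total reads, were chosen after they were seen. PWP2, UTP11 and other members called in small numbers were named because the count was small. Alternatives covered the scaling, the gene filter, DESeq2, a fit over all libraries, the block, the 2 WT sets and leaving out each library.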

Additional observations from a re-analysis of the deposited data

Results flagged for a closer look

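The change on IAA in Bdf1/2-AID was more negative than that in WT in 39 members (53.4% of genes), by a test of the difference itself, and that in ΔET in 8 members (13.7% of genes). Both counts were 0 with size factors from total reads and with TMM factors, and the ΔET count was 1 to 14 on leaving out a library. Of 50 groups of WT values examined for a single library far from the rest, 5 went beyond the 95% limit, a test in which chance gives about 1 in 20. In IAA, WT replicate A had 107 normalized T>C reads (per 10000000 total reads) for DIP2 (38.6 to 63.0 in the other 5 libraries), 269.9 for NOP14 (143.6 to 180.3) and 234 for NOG2 (109 to 145). In DMSO, WT replicate A had 228 for NOG2 (143 to 174 in the others) and replicate F had 462 for EBP2 (602 to 681). Replicate A was the high library in 4 of these 5 cases. The cause was not tested.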

How the results depend on the processing

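The scaling set most counts. Size factors by DESeq2 from total reads moved the median of all genes in Bdf1/2-AID to −0.74, and TMM factors to −0.15, against −1.80 with library totals, and values under them are relative to that shift. A count given without its share of all genes does not tell a change of the members from one of all genes. With size factors, 29 members were lower in Bdf1/2-AID (38.5% of genes), 35 in ΔET against WT, and 0 in mET(4) and in ΔBD1/2 against WT. In total reads of Bdf1/2-AID 13 were lower, and in the differences of Bdf1/2-AID and ΔET from WT 0. Of the other strains, 0 had over 50% of members lower on IAA, against 6. With TMM factors these counts were 2 (9.32% of genes), 12, 0, 1, 17, 0, 0 and 0. Under them 0 variants had over 50% of members lower than WT, against 5. In all 3 of ΔCPS, ΔNPS/CPS and mNPS/CPS in DMSO 0 members were lower, against 45. For changes relative to all T>C reads in Bdf1/2-AID, 37 members were lower without TMM factors (44.1% of genes) and 7 with at least 1 T>C read required in all libraries. DESeq2 gave 0, the replicate block 1 and a fit over all libraries 0.

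In comparisons between strains, the replicate block joined same-letter libraries of both strains, a link that the labels do not give. With the block, 34 members were lower in WT, 6 in mBD1/2 against WT, and the differences from WT passed in 50 members for Bdf1/2-AID, 31 for ΔET and 10 for mET(4). The shares of all genes for these counts, apart from that for mBD1/2, are given above. Apart from these and the count relative to all T>C reads above, the block moved none of the counts compared by over 1.5 times. A fit over all libraries gave 3 in WT, 35 in ΔBD1/2 and 22 in mBD1/2 against WT, 30 for the ΔET difference and 4 for mET(4), with 2 other strains over 50% on IAA. DESeq2 gave 7 in mBD1/2, 1 for the mET(4) difference and 2 such strains. With WT D to F alone the counts were 1 in WT, 39 in ΔBD1/2 (38.1% of genes) and 28 in mBD1/2 (33.9%). They were 26 for the ΔET difference and 1 for mET(4), with 10 variants over 50%. With WT A to C alone they were 2 in mBD1/2 (7.24% of genes), 16 for the ΔET difference and 1 for mET(4). The cause was not tested.

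Leaving out a library gave 2 to 27 in ΔBD1/2 against WT, 0 to 11 in mBD1/2 against WT, 1 to 14 for the ΔET difference, 0 to 2 for changes relative to all T>C reads, 1 to 5 other strains over 50%, and 0 to 46 members in all 3 variants in DMSO (0 without replicate A or C of every group). For Bdf1/2-AID it was 54 each time.

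Some values changed sign with the scaling. With size factors these were NOP1 (0.062), NOG2 (0.17) and NSR1 (0.36) in Bdf1/2-AID, NOP1 (0.21) and TIF6 (0.23) in ΔET against WT, NOG2 (0.30) in mET(4) against WT, and the median in total reads (0.022). With TMM factors they were EBP2 (0.0086), NOC2 (0.098), UTP9 (0.099), UTP10 (0.14), MRT4 (0.22), RLP7 (0.26), NOG1 (0.28), CBF5 (0.41), NOP56 (0.51), NOP58 (0.54), NOP1 (0.66), NOG2 (0.76) and NSR1 (0.97) in Bdf1/2-AID, NOP1 and TIF6 (1.00 each) in ΔET, NOP10 (0.39) and NOG2 (0.72) in mET(4), and the median of the mET(4) difference (0.046). With WT D to F alone NOP10 in mET(4) was 0.15. Members with few T>C reads, of which the lowest mean was 21.5, tended to have wider errors.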
